A study of Mus musculus with 40 samples.

Results

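For total blood of mice, 10 small RNA libraries taken at 15 months of age were set against 10 taken at 12 months, 20 of the 40 libraries of a series that followed ageing mice at 12, 13.5, 15 and 16.5 months. The mice were male wild-type C57B/6J animals, housed singly, and the labels of both groups differ by age alone. The study divided its animals into a group kept in the home cage and a group trained in a water maze, and the labels do not say which animals gave these libraries. By its methods the first blood was drawn at 12 months ahead of any behaviour test, and later blood followed the probe tests. Earlier bleeding, and training where the animals were trained, thus run with age and cannot be told apart from it. By its methods all mice were bled at each age, so that the libraries of both ages are repeated samples of 1 set of animals, whereas no label names the animal and the ages were tested as independent groups. Blood was taken from the orbital sinus, so that each value sums red cells, white cells, platelets and plasma, and fewer cells of a type cannot be told apart from less of a microRNA per cell. The comparison asks which blood microRNAs differ between the later and the earlier age. The rows were those with more than 100 reads in at least 20 of all 40 libraries, with the identical rows of miR-486a and miR-486b counted once, which left 103 of 1915 microRNAs.

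A microRNA is a short RNA cut as a duplex from a hairpin precursor, and the 2 arms of the hairpin give a 5p and a 3p strand. One strand is loaded into an Argonaute protein, where its seed, the bases 2 to 8, pairs with messenger RNAs and lowers their translation or stability. MicroRNAs with 1 seed form a family with shared targets. Most microRNA in whole blood comes from red cells, which carry miR-486, miR-451a and miR-16 at high level, whereas the let-7 family is found in nearly all cells and restrains growth genes.

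A RefSeq mature sequence (GRCm38.p6) was matched to 90 of the 103 microRNAs. The sequences below are those on which the results turn, with the seed in capitals. The 7 let-7 guide strands share the seed GAGGUAG, and 6 of them fell whereas let-7i-5p did not pass the test.
let-7a-5p: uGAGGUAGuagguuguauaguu
let-7b-5p: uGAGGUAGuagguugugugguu
let-7c-5p: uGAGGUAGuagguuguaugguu
let-7d-5p: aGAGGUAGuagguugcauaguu
let-7f-5p: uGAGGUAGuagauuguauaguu
let-7g-5p: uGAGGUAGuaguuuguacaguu
let-7i-5p: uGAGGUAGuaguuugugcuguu
Counted from the 5′ end and relative to let-7a-5p, let-7c-5p carries A19G, let-7f-5p carries G12A, let-7b-5p carries A17G and A19G, let-7d-5p carries U1A and U16C, let-7g-5p carries G12U and U18C, and let-7i-5p carries G12U, A17G, U18C and A19U. The first 18 bases of let-7a-5p and let-7c-5p are the same and reads of 18 bases were accepted, so that short reads of the pair cannot be told apart. Of each pair with 1 seed below, 1 strand passed the test and the other did not, while the difference within a pair was not tested. The following strands show these pairs and the second arm of let-7d, of which both were measured. miR-3969 and miR-501-3p are shown because they were among the 3 steepest falls.
let-7d-3p: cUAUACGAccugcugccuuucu
miR-30a-3p: cUUUCAGUcggauguuugcagc
miR-30e-3p: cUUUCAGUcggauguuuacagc
miR-192-5p: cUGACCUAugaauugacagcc
miR-215-5p: aUGACCUAugauuugacagac
miR-103-3p: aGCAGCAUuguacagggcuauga
miR-107-3p: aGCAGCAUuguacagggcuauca
miR-374b-5p: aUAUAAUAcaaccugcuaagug
miR-374c-5p: aUAAUACAaccugcuaagug
miR-3969: cCCUAAAGuagaaaucacua
miR-501-3p: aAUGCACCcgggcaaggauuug
miR-30a-3p and miR-30e-3p differ by G18A, miR-103-3p and miR-107-3p by G22C, and miR-192-5p and miR-215-5p by C1A, A12U and C20A. The sequence of miR-374c-5p is that of miR-374b-5p from position 3 on, and their counts were equal in every library, so that they are 1 measurement.

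The libraries held between 3277157 and 10854822 counts at 12 months and between 2622472 and 4723706 at 15 months. Leaving out miR-486, the medians were 855061.5 and 267135 counts, so that the later age was measured less deeply. These counts were 13.4% ± 2.70 (SD, n = 10) of the total at the earlier age and 7.93% ± 2.24 (SD, n = 10) at the later one, a difference of -5.52 percentage points (two-sided permutation test, p = 0.00012). A pair of 15-month libraries stood apart, with shares of miR-486-5p of 96.5% and 94.7% and normalization factors of 0.279 and 0.442, against 0.660 to 1.72 in the other 18. All 103 microRNAs were over 100 reads in at least 5 of 10 libraries at 12 months, and 74 of them were so at 15 months. The remaining 29 entered through the earlier age alone, which favours falls among them.

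**Figure D1:**
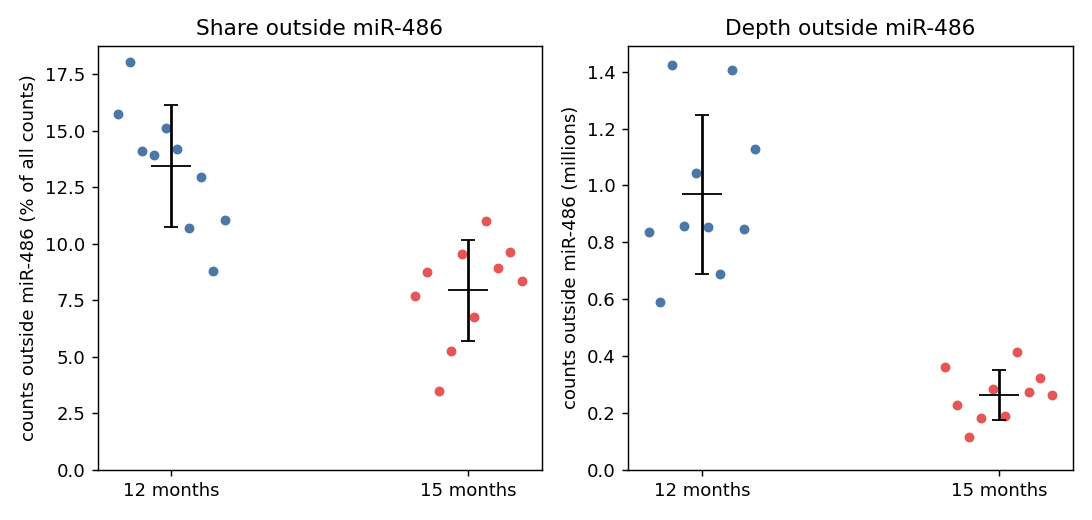
Counts outside miR-486 in each library, as a percentage of all counts (left) and in units of 1e6 (right), at 12 and 15 months. Points are libraries and bars are means with SD. The 15-month shares lie between 3.48% and 11%, against 8.77% to 18% at 12 months, and all 15-month libraries hold fewer counts outside miR-486 than any 12-month library.

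The red-cell list took 90.6% to 95.2% of counts at 12 months and 94.2% to 98.1% at 15 months, which fits the label of whole blood. Of 5 microRNAs of muscle, miR-1a-3p, miR-206-3p and miR-208a-3p were listed at 0 in all 20 libraries and miR-499-5p had at most 1 count, but miR-133a-3p had 27 to 233 counts at 12 months and 0 to 32 at 15 months. Of 4 strands listed for neurons, miR-124-3p was at 0 in all libraries and both strands of miR-9 had at most 3 counts, but miR-128-3p had 1084 to 4328 counts at 12 months and 267 to 1131 at 15 months, and stood at a log2 fold change of 0.16 without passing the test. miR-122-5p of liver did not pass 3 counts. The summed share of the leukocyte list (miR-142a and miR-21a) was 0.36% to 1.05% at 12 months and 0.0946% to 0.61% at 15 months. The share of the lymphocyte list (miR-150, miR-342 and miR-155) was 0.0275% to 0.0878% and 0.0154% to 0.0552%. The median shares of all lists other than that of red cells thus sat lower at 15 months, beside the larger share of miR-486-5p. After normalization none of the tested members of the leukocyte, lymphocyte or granulocyte lists passed the test, whereas miR-222-3p, the tested member of 4 listed for endothelium and platelets, was lower at -0.32. The part of other cell types in the results was not tested.

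In total, 29 of 103 microRNAs differed between the ages (28.2%, edgeR quasi-likelihood test, Benjamini-Hochberg adjusted p under 0.05), of which 10 were higher (9.71%) and 19 lower (18.4%) at 15 months. With the identical pair of miR-374 counted once, 18 were lower. The steepest fall was that of miR-3969, followed by let-7d-5p, miR-501-3p and let-7b-5p, and the largest rises were those of miR-486-5p, miR-151-3p and miR-192-5p. Changes were moderate: the rises spanned 0.27 to 1.04 and the falls 0.24 to 3.77 on the log2 scale, with 1 of each beyond a factor of 2. Among the 74 microRNAs that passed the read limit at both ages, 9 rose (12.2%) and 13 fell (17.6%), and among the other 29, 1 rose (3.45%) and 6 fell (20.7%). The 6 falls were those of miR-3969, let-7b-5p, miR-17-3p, miR-23b-3p, miR-374b-5p and miR-374c-5p, each over the limit in 0 libraries at 15 months. The rise was that of miR-30e-3p. The balance of rises and falls depended on the scaling, since median-ratio factors gave 12 rises (11.7%) and 13 falls (12.6%). With library totals alone 1 rose (0.971%) and 80 fell (77.7%), because the median of all 103 then lay at -0.81 in place of -0.04. The directions given here are therefore relative to the bulk of the other microRNAs.

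**Figure D2:**
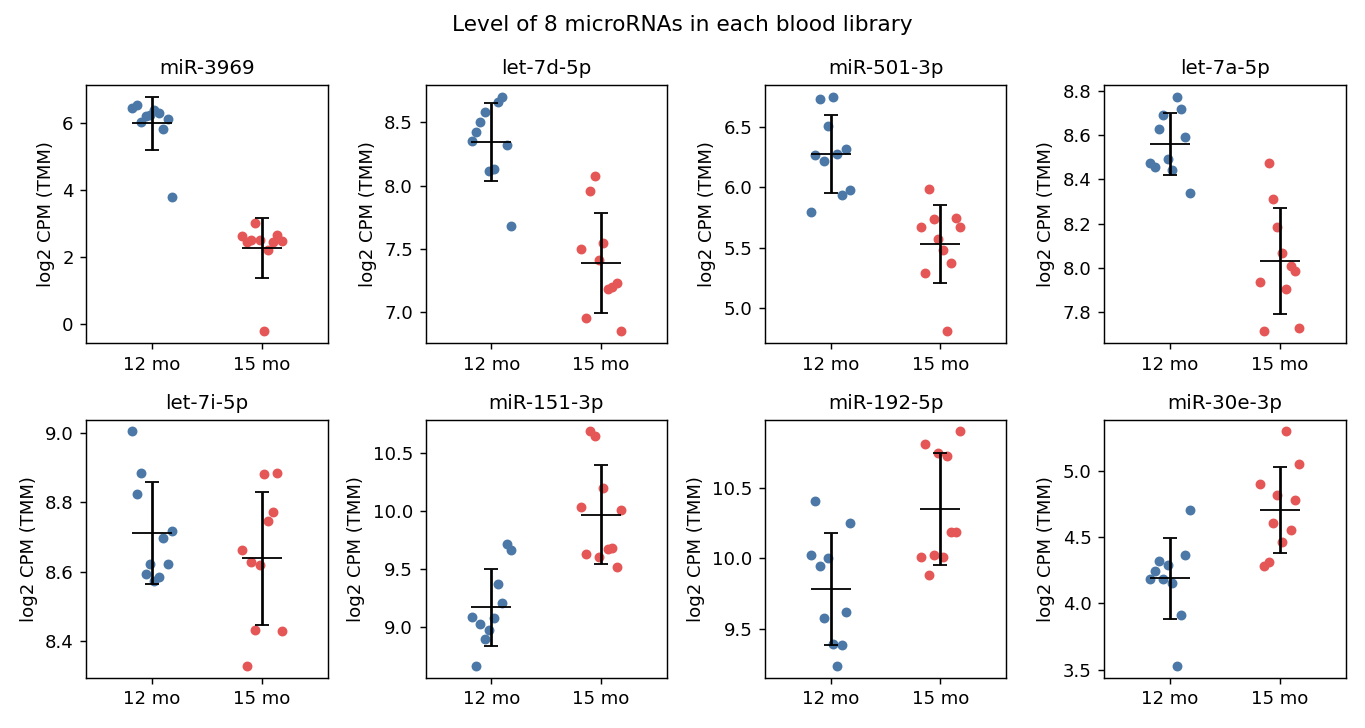
Levels of 8 microRNAs in each library as log2 CPM with TMM factors, at 12 (blue) and 15 months (red), each panel with its own axis. Points are libraries and bars are means with SD. miR-3969 is the microRNA whose 2 groups of libraries do not overlap, whereas the libraries of let-7i-5p lie in the same range at both ages.

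miR-3969 is a microRNA without a well-known function, whose hairpin lies on chromosome 5 (87595902 to 87595993, minus strand, GRCm38) outside any other annotated gene. Levels are given as CPM, counts per 1e6 of the TMM-scaled library size, which includes miR-486. At 12 months its lowest, median and highest levels were 13.6, 74.8 and 93.2 CPM, and at 15 months they were 0.543, 5.32 and 7.78 CPM. All 15-month libraries lay below all 12-month libraries, which was so for 1 of the 103 microRNAs (0.971%). Of these 2 ages, miR-3969 was over the read limit at 12 months alone, in 10 of 10 libraries against 0 of 10 at 15 months. Its entry into the test thus favoured a fall, and the separation is not independent of that. The log2 fold change was -3.77 (SE 0.30, edgeR adjusted p = 2.75e-09, lower in 10 of 10 libraries). It rests on few reads, with a median of 14.5 and at most 22 counts per library at 15 months against a median of 690.5 at 12 months. In a fit over all 4 ages, which shares the 12-month libraries between contrasts, the log2 difference from 12 months was -3.0 at 13.5 months, -3.79 at 15 months and 2.0 at 16.5 months (edgeR adjusted p under 0.05 for each). Its level therefore followed no single course over the 4 ages. Scaled over all 4 ages, the medians were 83.7 CPM at 12 months, 9.38 at 13.5, 6.21 at 15 and 280.5 at 16.5 months. The names of the count columns end in a single letter at 12 and 16.5 months, and in a letter with a number at 13.5 and 15 months. The high and low medians thus run with the form of the name, and what that form marks was not tested.

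The let-7 family held the most falls of any family examined. Of 8 let-7 guide strands tested, 6 were lower, 0 higher and 2 did not pass the test, where 18.4% of all 103 microRNAs were lower, and the median log2 fold change was -0.54 against -0.04 over all 103. let-7b-5p is among the 6 but, of these 2 ages, was over the read limit at the earlier alone, in 10 of 10 libraries at 12 months and 0 of 10 at 15 months. let-7e-5p, let-7k and the related miR-98-5p did not reach the limit and were not tested. The levels of let-7d-5p were 205.4, 334.8 and 416.0 CPM (lowest, median, highest) at 12 months and 115.1, 159.7 and 269.1 CPM at 15 months, and 8 of 10 libraries at 15 months lay below the range of 12 months. Its log2 fold change was -0.94 (SE 0.16, edgeR adjusted p = 0.000291). let-7a-5p had 323.2, 373.0 and 437.6 CPM at 12 months and 209.6, 255.3 and 355.3 CPM at 15 months, and 9 of 10 later libraries were below the earlier range. It fell by 0.52 on the log2 scale (SE 0.10, edgeR adjusted p = 0.000753).

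let-7b-5p was lower by a log2 fold change of -0.65, from a median of 28.7 to one of 18.3 CPM, and 9 of 10 libraries lay below the 12-month mean. let-7g-5p and let-7c-5p each had a log2 fold change of -0.56, and 9 of 10 libraries of either lay below the 12-month range. In let-7c-5p the remaining library, the one with the lowest normalization factor, was the highest of all 20, at 344.5 CPM. let-7f-5p, the member with the highest median CPM at 12 months, changed least among the 6, at -0.36 (adjusted p = 0.0172, edgeR). let-7i-5p had medians of 404.4 and 400.4 CPM, and its log2 fold change was -0.07 with a 95% interval from -0.25 to 0.11. let-7j was at -0.04 (95% interval -0.26 to 0.17). Neither passed the test.

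The hairpins of let-7d (48536012 to 48536114), let-7f-1 (48537829 to 48537917) and let-7a-1 (48538179 to 48538272) lie side by side on the minus strand of chromosome 13, in exons of the noncoding RNA 6720427I07Rik. Counts sum the loci of a strand, and let-7f-5p also comes from let-7f-2, in an intron of Huwe1 on chromosome X. let-7c-5p comes from chromosomes 16 and 15, and let-7b-5p from chromosome 15. The hairpin of let-7g is in an intron of Wdr82 on chromosome 9, and that of let-7i is on chromosome 10 (122985640 to 122985724, minus strand). Base composition moved with the libraries. The slope of log2 level on the GC content of the mature strand ran from -0.0457 to 0.0248 per percentage point at 12 months and from -0.0248 to 0.0557 at 15 months, and the first axis of variation within ages, with 64.3% of the variance, had loadings that correlated with GC content (r = 0.61, rho = 0.63 over 90 microRNAs that share libraries). With the slope of each library removed, chosen after seeing the data, 11 of 90 microRNAs rose (12.2%) and 4 fell (4.44%), and let-7d-5p stayed lower at -0.64 (adjusted p = 0.0229, edgeR). In that fit let-7b-5p stood at -0.49, let-7c-5p at -0.26, let-7g-5p at -0.18 and let-7a-5p at -0.12, and none of them passed the test, while let-7f-5p turned to 0.12. Each slope was taken against the mean of both ages, so that a difference between ages that runs with GC content is removed as well. The fit therefore cannot tell such a difference from the composition of the libraries. let-7a-5p and let-7g-5p hold 36.4% GC and let-7f-5p 31.8%, whereas let-7c-5p, let-7d-5p and let-7i-5p hold 40.9% each and let-7b-5p 45.5%.

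**Figure D3:**
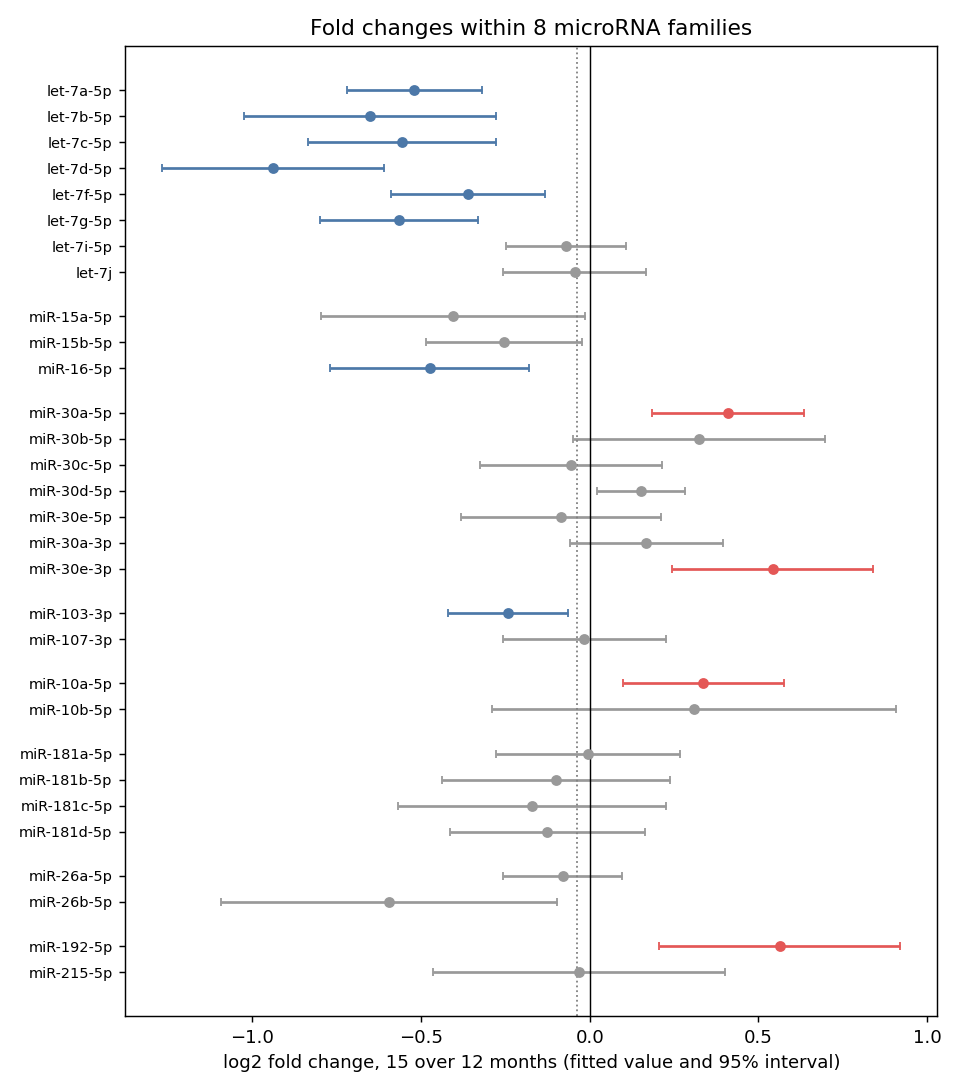
Fitted log2 fold changes (15 over 12 months, TMM scaling) with 95% intervals for 30 members of 8 microRNA families. Blue marks a call lower, red a call higher and grey no call. The dotted line is the median of all 103 microRNAs, at -0.04. The let-7 members run from -0.94 for let-7d-5p to -0.04 for let-7j, whereas the 4 members of the miR-181 family lie between -0.17 and 0.00.

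let-7d gave reads from both arms, and the ratio of the arms within a library does not depend on the scaling. At 12 months the log2 ratio of 5p to 3p was 2.04 ± 0.78 (SD, n = 10), and at 15 months it was 0.52 ± 0.34 (SD, n = 10). The difference was -1.52 (two-sided permutation test, adjusted p = 8e-04 over 10 hairpins), and 8 of 10 libraries at 15 months lay below the range of 12 months. The 3p strand had a log2 fold change of 0.55 that did not pass the test (adjusted p = 0.186, edgeR). The 5p strand holds 40.9% GC and the 3p strand 50.0%, and whether the GC slopes of the libraries bear on the ratio was not tested.

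Of 10 hairpins with both arms measured, 3 changed their arm ratio (30%), and in all 3 the share of the 3p strand was larger at 15 months. miR-30e went from 4.51 ± 0.38 to 3.87 ± 0.23 (SD, n = 10 each), a difference of -0.64 (permutation test, adjusted p = 0.0038), with 2 of 10 later libraries below the earlier range. miR-151 went from -1.27 ± 0.39 to -1.77 ± 0.38 (SD, n = 10 each), a difference of -0.50 (permutation test, adjusted p = 0.0339). Without the library of fewest reads outside miR-486 at each age, the difference for miR-151 was -0.35 and did not pass the test (permutation test, adjusted p = 0.0912). The other 7 hairpins, miR-130b, miR-15b, miR-25, miR-30a, miR-423, miR-486a and miR-93, did not pass it.

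**Figure D4:**
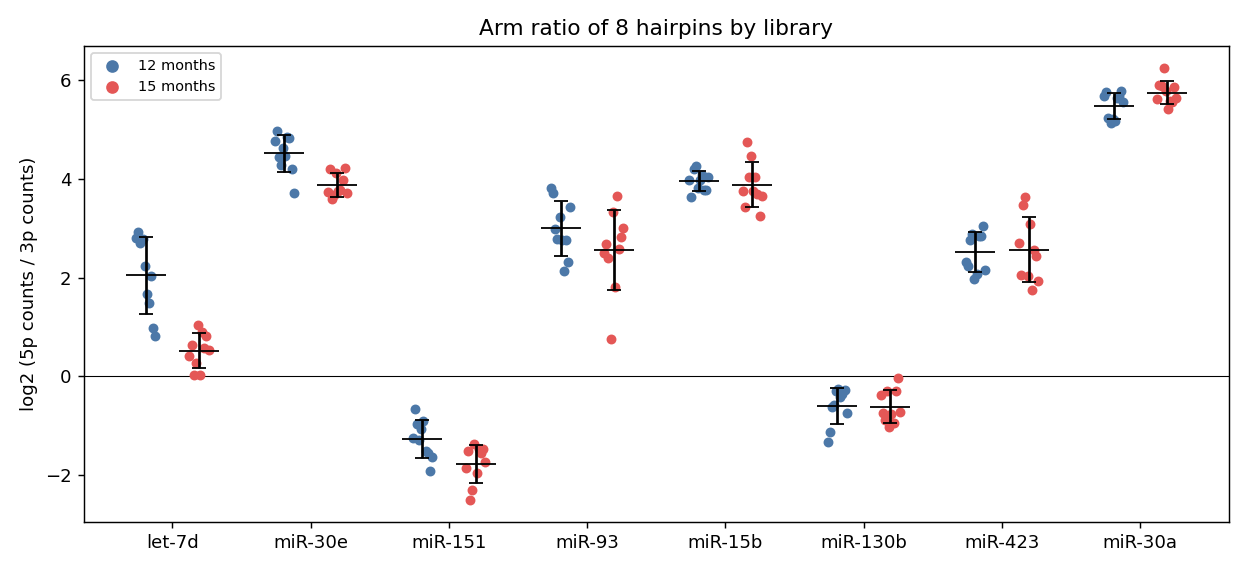
Log2 ratio of 5p to 3p counts, each with 0.5 added, in each library for 8 of the 10 hairpins at 12 (blue) and 15 months (red). Points are libraries and bars are means with SD. let-7d falls from a mean of 2.04 to one of 0.52, and the ratios of miR-15b, miR-130b and miR-423 overlap between the ages. miR-25 and miR-486a, whose ratios lie far outside the axis, are not drawn.

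miR-151, from an intron of the kinase gene Ptk2 on chromosome 15, rose on both arms. miR-151-3p had 405.0, 541.6 and 843.4 CPM (lowest, median, highest) at 12 months and 734.8, 926.1 and 1651 CPM at 15 months. The groups overlapped for 5 of 10 later libraries, and the log2 fold change was 0.83 (SE 0.17, edgeR adjusted p = 0.00137). miR-151-5p rose by 0.30, and 7 of its 10 later libraries lay above the range of 12 months. In the fit over 4 ages, miR-151-3p was also higher than at 12 months at 13.5 months (0.42) and at 16.5 months (0.65), and so was miR-151-5p (0.35 and 0.37, edgeR adjusted p under 0.05 for each). Of the 29 microRNAs, 9 differed from 12 months at 13.5 months and 12 at 16.5 months in that fit, where 35% and 26.2% of all 103 microRNAs did so. The contrasts share the 12-month libraries. At 13.5 months 5 of the 9 had the direction seen at 15 months and 4 the opposite one, namely miR-140-3p (-0.64), miR-30e-3p (-0.48), miR-30a-5p (-0.46) and miR-103-3p (0.41). At 16.5 months 8 of the 12 had the same direction and 4 the opposite one, namely miR-3969, miR-140-3p (-0.47) and the identical miR-374b-5p and miR-374c-5p (0.36).

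miR-486-5p, the erythroid microRNA encoded in an intron of Ank1, rose by 1.04 on the log2 scale (SE 0.26, edgeR adjusted p = 0.00688). As a share of counts it ran from 82.0% to 91.2% at 12 months and from 89.0% to 96.5% at 15 months, and the groups overlapped. Without the pair of libraries that stood apart, the log2 fold change was 0.67 (adjusted p under 0.05), and relative to library totals it was 0.09. Of the 7 red-cell strands tested, miR-486-5p was higher, 1 was lower and 5 did not pass the test, with a median of 0.16, where 9.71% of all 103 microRNAs were higher and 18.4% lower. miR-486a-3p, the other strand of the same hairpin, was at 0.27 (95% interval -1.18 to 1.72). miR-16-5p was lower at -0.47 (adjusted p = 0.0166, edgeR), whereas miR-451a stood at -0.24, miR-144-5p at -0.33, miR-92a-3p at 0.25 and miR-25-3p at 0.16. miR-16-5p shares its seed AGCAGCA with miR-15a-5p (-0.40) and miR-15b-5p (-0.25), which did not pass the test.

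Further rises were those of miR-192-5p, a microRNA of liver and gut epithelium, and of several microRNAs found in many tissues. miR-192-5p had 605.6, 887.2 and 1357 CPM (lowest, median, highest) at 12 months and 946.5, 1166 and 1904 CPM at 15 months. All 10 later libraries were above the earlier mean and 4 were above the earlier range, with a log2 fold change of 0.56 (SE 0.17, edgeR adjusted p = 0.0172). miR-215-5p, with the same seed, stood at -0.03 (95% interval -0.47 to 0.40) and miR-194-5p at 0.34, and neither passed the test. The counts of miR-194-5p sum the hairpins Mir194-2, beside that of miR-192 on chromosome 19, and Mir194-1, beside that of miR-215 on chromosome 1. miR-122-5p, the defining microRNA of hepatocytes, was at or near 0 in both groups.

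miR-30e-3p, from an intron of Nfyc on chromosome 4, rose from a median of 18.3 to one of 25.5 CPM, a log2 fold change of 0.54 (SE 0.14, edgeR adjusted p = 0.00774). Its near relative miR-30a-3p was at 0.17 (95% interval -0.06 to 0.40). On the 5p arm the order was the other way, since miR-30a-5p rose by 0.41 and miR-30e-5p stood at -0.09 without passing the test. Of the 7 miR-30 strands, 2 were higher, 0 lower and 5 did not pass the test, against 9.71% higher and 18.4% lower over all 103. miR-27b-3p, a microRNA of muscle and vessel biology, rose by 0.47, whereas miR-23b-3p of the same cluster fell by 0.41 on the log2 scale, with at most 22.3 CPM at 15 months. miR-10a-5p, encoded within a Hox cluster, rose by 0.34, and miR-10b-5p, with the same seed, was at 0.31 with a wider interval (-0.29 to 0.91) and did not pass the test. miR-378c rose by 0.30 and miR-140-3p, from the Wwp2 gene, by 0.27.

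Among the falls outside let-7, miR-501-3p lies with its hairpin in an intron of the chloride transporter gene Clcn5 (chromosome X, 7241243 to 7241351, minus strand). It had 55.1, 77.2 and 107.5 CPM (lowest, median, highest) at 12 months and 27.7, 48.9 and 63.0 CPM at 15 months. All but 1 of the 10 later libraries lay below the earlier range, and the log2 fold change was -0.76 (SE 0.15, edgeR adjusted p = 0.000912). With the GC slopes removed it was -0.80 and still passed the test, as did miR-3969, whereas the other 8 falls outside let-7 with a known sequence did not. In that fit miR-93-5p was at -0.59 (adjusted p = 0.0585, edgeR), and the identical miR-374b-5p and miR-374c-5p, whose sequences give them different GC contents, were at -0.17 and -0.22. Of 7 rises with a known sequence, 6 still passed the test and miR-140-3p did not. miR-532-5p of the same cluster stood at -0.04. miR-93-5p, a member of the miR-17 family of cell-cycle microRNAs encoded in Mcm7, fell by 0.64 on the log2 scale, and 7 of 10 libraries were below the earlier range. Its cluster partners miR-25-3p (0.16) and miR-106b-3p (0.18) did not pass the test. In the fit over 4 ages, miR-501-3p and miR-93-5p were also lower than at 12 months at 16.5 months (-0.76 and -0.70, edgeR adjusted p under 0.05), but not at 13.5 months (0.29 and 0.25).

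The other 9 falls, those of miR-374b-5p (with miR-374c-5p), miR-320-3p, miR-16-5p, miR-23b-3p, miR-17-3p, miR-222-3p, miR-22-3p, miR-421-3p and miR-103-3p, lay between -0.61 and -0.24. miR-103-3p was at -0.24 (adjusted p = 0.037, edgeR), and miR-107-3p, which differs from it by 1 base, at -0.02. The falls of miR-17-3p, miR-222-3p, miR-22-3p, miR-421-3p and miR-103-3p passed the test in at most 9 of the 36 further fits other than that of library totals. When each of the 20 libraries was left out in turn, 15 of the 29 calls held every time, miR-22-3p held in 0 of 20 fits, miR-17-3p and miR-222-3p in 1, miR-320-3p in 2, miR-103-3p and miR-421-3p in 3, let-7f-5p in 5 and miR-16-5p in 6. With the number that opens each column name as a block, which recurs at both ages and may name the animal, miR-16-5p (adjusted p = 0.0738), miR-22-3p (0.0908), miR-103-3p (0.103), miR-421-3p (0.112) and the rise of miR-378c (0.0748) did not pass the edgeR test, and the other 24 did. Without the pair of libraries that stood apart, 15 microRNAs rose (14.6%) and 11 fell (10.7%), and 21 of the 29 kept their call and direction. The 15-month columns carry names of 2 forms, which the labels do not explain, with 3 and 7 libraries. The 12-month columns carry neither form and end in a single letter. The form of the name thus runs with age, and whatever it marks cannot be told apart from age. Within the form of 7 libraries, 13 microRNAs rose (12.6%) and 11 fell (10.7%), and within the form of 3, miR-486-5p and miR-151-3p rose (1.94%) and miR-3969 fell (0.971%).

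**Figure D5:**
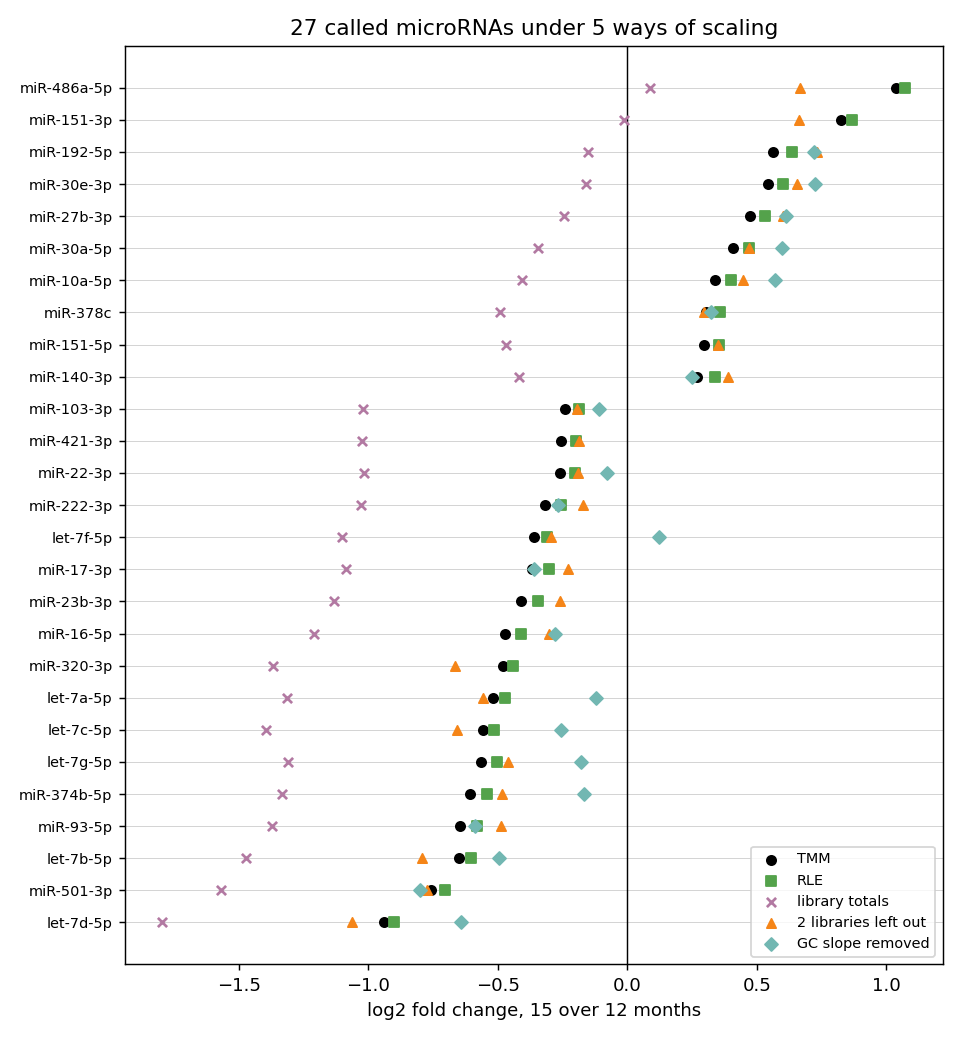
Log2 fold changes (15 over 12 months) of 27 of the 29 called microRNAs with TMM factors, median-ratio factors (RLE), library totals alone, without the 2 libraries of lowest TMM factor, and with the GC slope of each library removed, the last for microRNAs with a sequence. miR-3969 and the duplicate miR-374c-5p are not drawn. Library totals move the points to the left as a group, from -0.94 to -1.79 for let-7d-5p and from 0.83 to -0.01 for miR-151-3p.

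Of 7 microRNAs used as references in blood, 0 were higher and 3 lower (miR-93-5p, miR-320-3p and miR-103-3p), where 18.4% of all 103 were lower, and miR-423-3p, miR-423-5p, miR-484 and miR-191-5p did not pass the test, with a median of 0.03. The study selected 7 microRNAs, possibly with these libraries among its data, so that their directions are not independent evidence. Of these, miR-192-5p was higher, let-7b-5p was lower and 5 did not pass the test, and the 2 calls among 7 are close to the 28.2% of all 103 microRNAs. The 5 were miR-181a-5p at 0.00 (95% interval -0.28 to 0.27), miR-146a-5p at -0.32 (-0.93 to 0.28), miR-148a-3p at -0.42 (-1.09 to 0.25), miR-130b-3p at -0.21 (-0.54 to 0.12) and miR-30a-3p at 0.17. The 4 miR-181 members and both miR-26, miR-146 and miR-148 members were without a call.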

How the data were processed

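Per the labels and the study's methods, small RNA was prepared with TruSeq kits and sequenced in reads of 50 bases. Reads were mapped to mm10 with the miRDeep2 tools, and known microRNAs were counted on their precursors without mismatches. The authors deposited raw counts per mature microRNA, with reads from several loci summed. By the methods, the same mice were bled at each age. The labels give the age but not the animal, so that libraries were treated as independent, and p-values measure the spread between them.

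Rows over 100 reads in 20 of 40 libraries were tested with edgeR 4.0.16 (R 4.3.3, TMM, glmQLFit, glmQLFTest), Benjamini-Hochberg over 103 rows, at a threshold of 0.05. Standard errors were taken from the fold change and its F statistic. Intervals use 18 degrees of freedom. Arm ratios (0.5 added) and shares were compared by two-sided permutation (100000 resamples, scipy 1.17.1). Alternatives used DESeq2 1.42.0 and limma 3.58.1. The fit was tested on simulated counts drawn independently for each microRNA, which leaves out the variation that microRNAs share across libraries. No pair of libraries of 1 age was a duplicate (lowest chi-square per degree of freedom 19.6 over 90 pairs). Reads were amplified and carry no molecular identifiers, so they are not independent molecules. Positions come from GENCODE M21. The second deposited table, a rescaling of the counts, was not used. The microRNAs named are all 29 calls, the 5 of highest share, the study's 7 and the members of marker, family and cluster lists. Members and lists were chosen with earlier results of these data known.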

Additional observations from a re-analysis of the deposited data

Results flagged for a closer look

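In 10 libraries of 1 age, the highest or lowest value was looked at again where its gap to the nearest library was large for the range of the group (Dixon's 95% limit). Of 96 groups of values examined, 8 did so, where chance gives about 1 in 20. All values are log2 CPM. miR-3969 had 1 library at 3.80 at 12 months (nearest 5.82) and 1 at -0.22 at 15 months (nearest 2.22), and the groups stay apart with either. The 15-month library of lowest normalization factor was the highest of its age for let-7c-5p (8.43, nearest 7.52), miR-191-5p (14.5, nearest 13.7), miR-181a-5p (8.15, nearest 7.49) and miR-378c (6.39, nearest 6.07). The 15-month library with the next lowest factor was the lowest of its age for miR-16-5p (11.9, nearest 12.5) and miR-17-3p (2.77, nearest 3.50). What sets these libraries apart was not tested.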

How the results depend on the processing

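Calls stayed within 1.5 times of 29 with median-ratio factors, DESeq2, limma voom, all 4 ages, other treatments of identical rows and equal depth. These fits kept 18 (equal depth outside miR-486) to 28 of the 29. The low filter called 39 of 343 rows and kept 18, and no filter 35 of 899 and 16. Calls moved to 81 with library totals alone and 46 with 1 factor of unwanted variation. Of fits chosen after seeing the data, that without GC slopes gave 15 of 90 and that with the 3 later libraries of one form 3. The last has fewer samples, and the cause of the others was not tested. Leaving out each library in turn gave 21 to 29 calls. Of the 29, 18 to 25 held in each such fit, whose median log2 fold change lay between -0.07 and 0.06, and the 14 lost at least once were falls apart from miR-10a-5p and miR-140-3p. miR-22-3p lost its call in all of these fits, let-7b-5p in 1 and let-7c-5p in 2. The split was 10 rises and 19 falls in the reported fit, 16 and 16 with DESeq2, 11 and 10 without miR-486 rows and 14 and 8 at equal depth. miR-3969 and miR-486-5p passed the test in every fit that held them, miR-151-3p in all but that of library totals, and 17 of the 29 in all but at most 4 of 36 fits.

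The labels do not pair the mice bled at both ages. A number at the start of each column name recurs at both ages, and same-numbered libraries, centred within age, correlated from -0.85 to 0.64, over 0.1 in 4 of 10 pairs. The first axis of variation within ages holds 64.3% of the variance and weighs on each correlation. The correlations thus cannot show whether the number names the animal. As a replicate block, chosen after seeing the data, the number gave 24 calls, all among the 29, without miR-16-5p, miR-22-3p, miR-103-3p, miR-421-3p and miR-378c.

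With library totals, whose median was -0.81, values turned negative for miR-10a-5p (-0.41), miR-140-3p (-0.42), miR-151-3p (-0.014), miR-151-5p (-0.47), miR-192-5p (-0.15), miR-27b-3p (-0.25), miR-30a-5p (-0.34), miR-30e-3p (-0.16), miR-378c (-0.49), miR-92a-3p (-0.64), miR-191-5p (-0.83), miR-25-3p (-0.61) and miR-30a-3p (-0.57). let-7f-5p turned to 0.12 with the GC slopes removed. Values near 0 without a call also turned. miR-191-5p went to -0.14 with voom, -0.027 and -0.13 with the low and no filter, -0.042 with 1 factor, -0.064 with 7 later libraries and -0.063 without the 2 libraries that stood apart. It stood between -0.044 and 0.17 when single libraries were left out. In the fit without those 2 libraries miR-92a-3p was at -0.055 and miR-451a at 0.071, and the latter at 0.14 with the GC slopes removed. miR-181a-5p was at 0.044 with median-ratio factors, 0.038 with DESeq2, 0.064 without miR-486 rows, 0.077 with both sets of them, 0.047 at equal depth, 0.23 with 3 later libraries, 0.12 with the GC slopes removed and between -0.055 and 0.16 when single libraries were left out. Arm ratios turned for miR-130b (0.013) and miR-25 (0.026) with 5 counts added, for miR-25 (0.11) and miR-423 (-0.034) by medians, and for miR-423 (-0.077) without the shallowest libraries. Between 2 and 3 arm ratios passed the test.

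The difference in the share outside miR-486 lay between -6.04 and -5.01 percentage points when single libraries were left out, at -5.53 with miR-486-5p alone taken out and at -5.48 over the tested rows. At 15 months the lowest depth outside miR-486 was 114748 counts, so that microRNAs under 100 reads there carry wide errors. Intervals cover the libraries in hand and counting error only.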
